A study of Mus musculus with 13 samples.

Results

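The genes of 7 secreted Wnt antagonists, Wif1, Sfrp1, Sfrp2, Frzb, Dkk1, Dkk2 and Dkk3, were followed through presumptive intervertebral disc (IVD) and vertebrae of the mouse embryo. They were taken as every probe set whose annotated symbol is exactly one of these names, which gave 14 of the 45037 probe sets and 7 of the 18193 named genes. Sfrp1 had 5 probe sets, Frzb, Dkk1 and Dkk3 had 2 each, and Wif1, Sfrp2 and Dkk2 had 1 each, so probe sets of one gene are not separate genes. The study asked which genes mark the IVD and how they depend on Tgfbr2, the type II receptor of transforming growth factor beta. Lumbar tissue of E13.5 embryos was cut out by laser, and 50 ng of RNA per sample was amplified and hybridised to 13 arrays. There were 4 arrays of Tgfbr2-mutant IVD, 3 of control IVD, 3 of mutant vertebrae and 3 of control vertebrae. Mutants were Cre+ with both Tgfbr2 alleles floxed (Tgfbr2lox/lox), and Cre ran under the Col2a promoter, which is active in cells that form cartilage. Controls were Cre- with 1 floxed allele (Tgfbr2lox/wt), so every embryo carried a floxed allele and the genotypes differ in Cre as well as in the second allele. The same mice gave both control tissues. The captured IVD was mostly the future annulus fibrosus with little notochord.

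Wnt proteins are secreted ligands that bind Frizzled receptors and the co-receptors Lrp5 and Lrp6, and the canonical branch ends with beta-catenin and TCF/LEF factors at target genes. The antagonists act outside the cell in 2 ways. Wif1, Sfrp1, Sfrp2 and Frzb (also called Sfrp3) bind the Wnt ligands themselves, while Dkk1 and Dkk2 bind the co-receptors. Dkk3 is a divergent member of the Dkk family whose part in Wnt signalling is less clear. In the skeleton, Wnt signalling bears on whether progenitors become cartilage or fibrous and joint tissue, and Frzb was first described in cartilage.

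The files hold log2 signals from which the median over the 13 arrays has been taken for each probe set. Such values show differences between arrays and hold no level, so antagonists cannot be ranked by abundance. The 4 groups were compared with limma, an empirical Bayes linear model fitted to all probe sets, and calls were made where the adjusted p was under 0.05. The spread refers to separately labelled biological samples, and precision is limited by how few arrays there are. In such bulk tissue, fewer cells of a type and less RNA per cell cannot be told apart.

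Several arrays carried RNA of other tissues or stood apart from their group. In the array labelled mutant IVD 3, the mean log2 value of 8 annulus markers was -1.41, the lowest of the 13 arrays, against 0.60 to 1.44 in the other mutant IVD arrays. Fmod, an annulus marker, was at -1.86 there, against 0.05 to 1.07 in the others. Matn1, a cartilage matrix protein, was at 0.60 in that array and between -3.69 and -2.49 in the other mutant IVD arrays. The mean over 8 cartilage markers was 0.08, against -1.78 to -0.57. Of these, Col2a1 was at 0.04, against 0.41, -1.10 and -1.77 in mutant IVD 1, 2 and 4. It differed by 0.04 (SE 0.53) between control tissues. The annulus list and Matn1 thus go against an IVD label, and Col2a1 does not set this array apart. The same array had a mean of 3.11 over 12 neuronal genes, all of which were above 1, and control vertebrae 3 had 2.35. For liver genes the averages were 2.65 and 3.69 in mutant IVD 3 and 4, 5.40 in control IVD 1 and 5.59 in control vertebrae 1, and no other array exceeded 0.26. Of 10 skeletal muscle genes 8 were above 1 in mutant IVD 4 (mean 2.45) and 7 in control IVD 1 (mean 2.14). Mutant vertebrae 1 had the widest spread of values over all probe sets (interquartile range 0.82, against 0.26 to 0.39 in the others). Xist was low and the 3 measured Y-linked genes were high in 5 mutant arrays, while mutant IVD 3, mutant vertebrae 3 and all 6 control arrays had the opposite pattern, so sex and genotype were partly confounded. Tgfbr2 itself differed by 0.11 (SE 0.17) between mutant and control IVD and by -0.24 (SE 0.18) between mutant and control vertebrae. Whether its probes lie in the deleted exon was not analysed here, so this does not check the genotype.

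**Figure D1:**
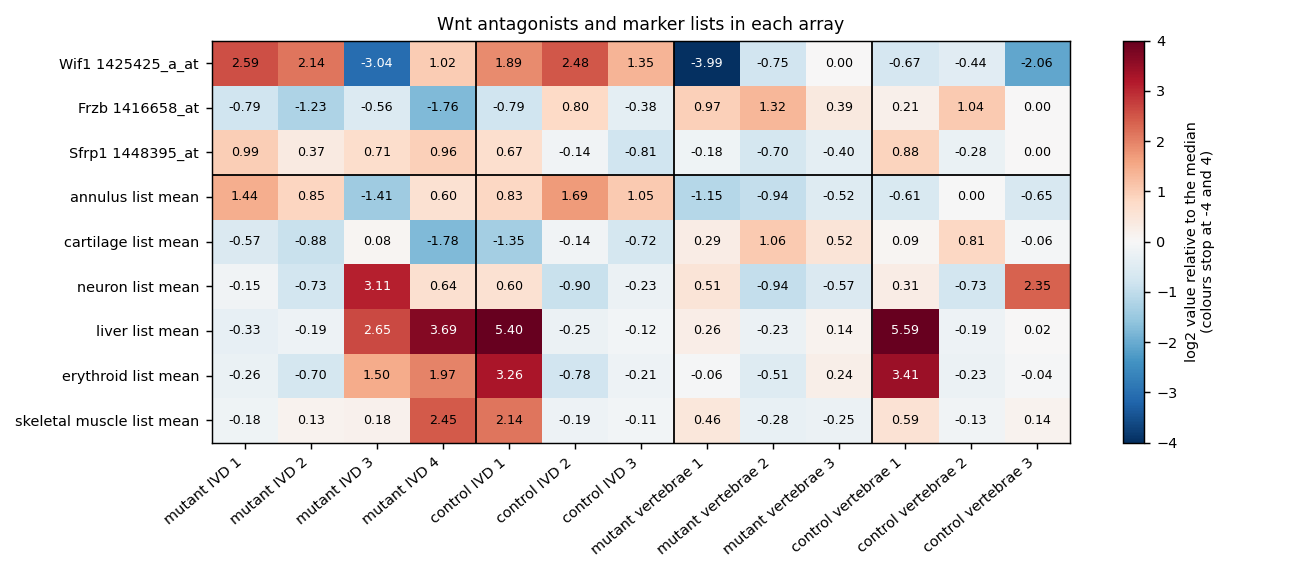
Log2 values of Wif1, Frzb (1416658_at) and Sfrp1 (1448395_at) and mean log2 values of 6 marker lists (rows) in each of the 13 arrays (columns, by group), each relative to the median over the arrays. Wif1 and the annulus list are both low in mutant IVD 3 (-3.04 and -1.41), and both are positive in the other 6 IVD arrays.

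Promoter sequence is shown for the 2 antagonists with the clearest tissue pattern among the 5 with a window. These are Wif1 on the IVD side and Frzb, in mutants, on the vertebral side. Each is the 250 bases before the RefSeq start site, on GRCm38.p6, written from 5′ to 3′ along the gene. Capitals mark CTTTGA or its reverse complement TCAAAG, the core letters bound by TCF/LEF factors. Wif1 lies on the plus strand at chr10:121033754-121034003, and Frzb on the minus strand at chr2:80447397-80447646.
Wif1: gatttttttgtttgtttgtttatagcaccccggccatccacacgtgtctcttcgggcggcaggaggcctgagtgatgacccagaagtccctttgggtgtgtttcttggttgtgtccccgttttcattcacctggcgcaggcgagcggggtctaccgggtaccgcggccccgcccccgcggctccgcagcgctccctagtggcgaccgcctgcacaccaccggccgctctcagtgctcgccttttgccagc
Frzb: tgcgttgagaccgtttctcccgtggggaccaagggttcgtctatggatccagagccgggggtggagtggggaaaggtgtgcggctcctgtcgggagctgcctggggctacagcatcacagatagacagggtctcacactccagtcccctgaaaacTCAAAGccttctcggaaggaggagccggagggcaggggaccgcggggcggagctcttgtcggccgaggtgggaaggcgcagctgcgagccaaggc
The Frzb window holds 1 TCF/LEF core and the Wif1 window none. The core was found in 13.8% of 32851 RefSeq promoter windows searched on both strands, so 1 match is not rare. A second motif, CAGAC or GTCTG, to which SMAD proteins downstream of Tgfbr2 bind, is in 42.2% of the windows and in neither of these. Of the 5 antagonists with a window, Dkk1 held 2 TCF/LEF cores, Sfrp2 held 1 SMAD motif and Dkk2 held neither. A match of letters is a description of the window and does not show a site in use.

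Among the 14 probe sets, Wif1 varied most between arrays. Its values spanned 6.59 on the log2 scale, a wider range than in 99.9% of all probe sets. Dkk2 spanned 4.75, Frzb 3.08 by 1416658_at, Sfrp2 2.69 and Sfrp1 2.59 by 1428136_at. The smallest range was 0.40, for Dkk1 by 1458232_at, and the median range was 1.63 over the antagonists and 1.19 over all probe sets. The plot of all values shows that wide ranges took 2 forms. Wif1 and, in mutants, Frzb separated largely by tissue, whereas Dkk2 and Sfrp2 were scattered within every group.

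**Figure D2:**
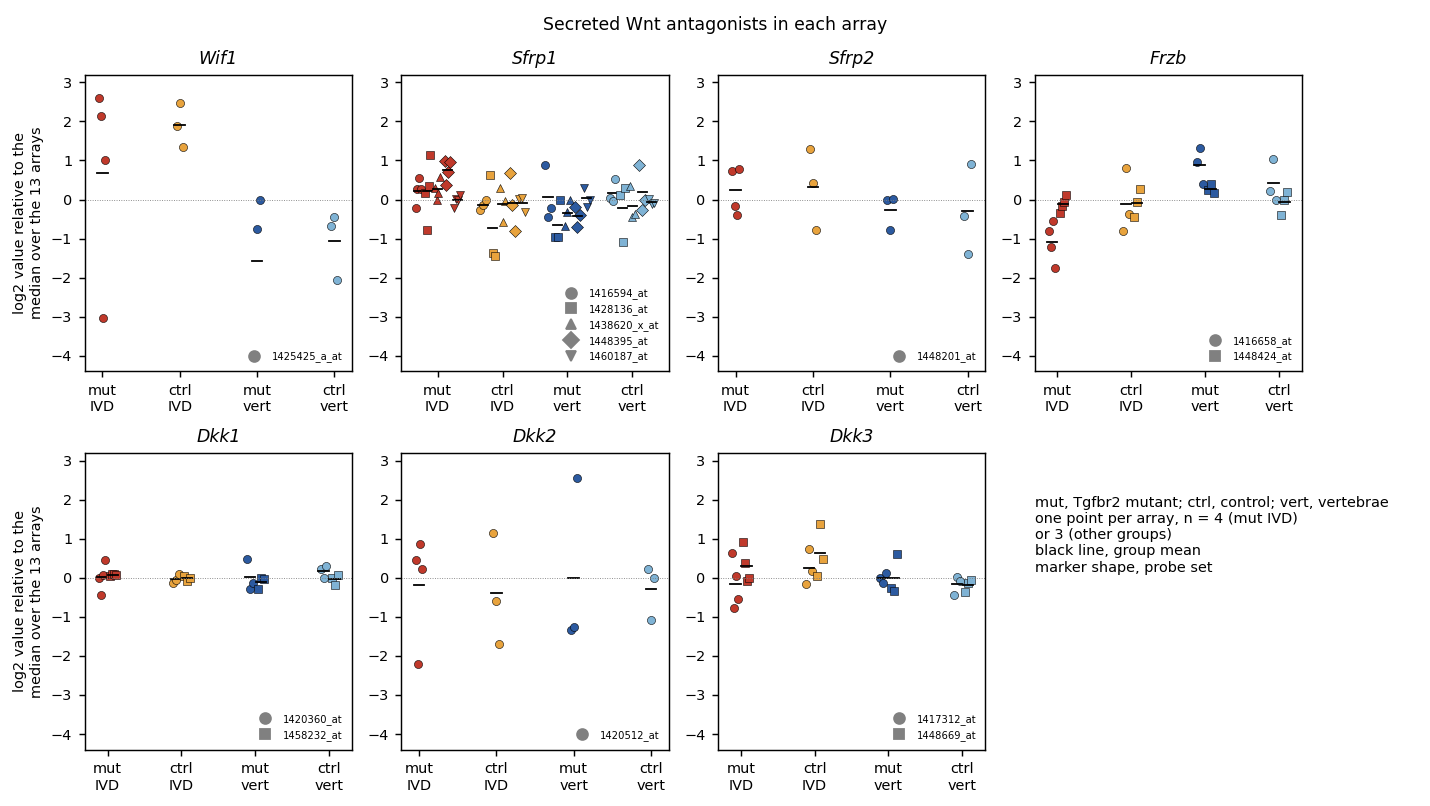
Log2 value relative to the median over the 13 arrays (vertical axis) of every antagonist probe set in each array, with 1 point per array, marker shape for the probe set and a black line for the group mean. Wif1 is above 1 in all 3 control IVD arrays and 3 of the 4 mutant IVD arrays, and at most 0 in all 6 vertebral arrays.

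Wif1, the Wnt inhibitory factor that captures Wnt ligands, had its highest control values in IVD. Its log2 values were 1.89, 2.48 and 1.35 in control IVD, against -0.67, -0.44 and -2.06 in control vertebrae. The groups did not overlap, which was also true of 7.44% of all probe sets in this comparison. Taken within the mouse, assuming that arrays of the same number share one, IVD exceeded vertebrae by 2.56, 2.92 and 3.41. The mean difference was 2.97, with a standard error of 1.32 in the fit of all arrays (95% interval 0.09 to 5.84, unadjusted p = 0.044, adjusted p = 1). With the mouse as a random block over the control arrays, limma gave a standard error of 0.29, an interval of 2.26 to 3.67 and an adjusted p of 0.0368. That fit called 0.0933% of all probe sets, and Wif1 was the 1 antagonist probe set among them. A fixed block for the mouse, which called 0.0711% of all probe sets, also called Wif1 and no other antagonist (adjusted p = 0.0388). The call was lost when any one mouse was left out, with adjusted p-values from limma of 0.231, 0.498 and 0.241 and differences of 2.74 to 3.17. Without the mouse 1 arrays, both of which carried liver transcripts, the difference was 3.17, and without the array with neuronal RNA it was 2.46.

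In Tgfbr2-mutant embryos Wif1 was high in 3 of 4 IVD arrays. The log2 values were 2.59, 2.14, -3.04 and 1.02 in mutant IVD, against -3.99, -0.75 and 0.00 in mutant vertebrae. The groups overlapped through mutant IVD 3 alone, which was below 2 of the 3 vertebral arrays. The difference of 2.26 (SE 1.23) had an adjusted p of 0.694 by limma, became 3.50 (SE 0.88, adjusted p = 0.177) without mutant IVD 3, and was 1.06 (SE 1.25, adjusted p = 0.916) without mutant vertebrae 1.

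Between genotypes, Wif1 gave no difference whose direction was stable. Mutant IVD differed from control IVD by -1.23 (SE 1.23, adjusted p = 1 by limma). Without mutant IVD 3 the difference was 0.01, with a 95% interval of -1.93 to 1.95, so the lower group mean rested on that array. In vertebrae, mutant minus control was -0.52 (SE 1.32, adjusted p = 0.998) and turned to 0.68 without mutant vertebrae 1. The interaction, the genotype difference in IVD minus that in vertebrae, was -0.71 (SE 1.80, adjusted p = 1), and it was 0.53 without mutant IVD 3. In mutant IVD 3 low Wif1 stood beside low annulus markers and high neuronal and liver genes, and their part in its value was not tested.

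The genes whose pattern was closest to that of Wif1 over the 13 arrays were Adamts6, Ccn4 and Tgfb3. Pearson's r was 0.97, 0.96 and 0.96 (Spearman's rho 0.97, 0.96 and 0.91) among 1965 genes that spanned at least 2 on the log2 scale. Without mutant vertebrae 1 and mutant IVD 3, the arrays farthest from the median of Wif1, r was 0.95, 0.92 and 0.91. Adamts6 is a secreted metalloproteinase, Ccn4 is a matricellular protein also known as Wisp1, and Tgfb3, which is also in the annulus list, is a ligand of Tgfbr2. The points share mice in the control groups and the tissue difference itself, so these are descriptions.

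Frzb, a secreted Frizzled-related protein that binds Wnts and is known from cartilage, ran the other way in mutants. By probe set 1416658_at its log2 values were -0.79, -1.23, -0.56 and -1.76 in mutant IVD, against 0.97, 1.32 and 0.39 in mutant vertebrae. All IVD arrays were negative and all vertebral arrays positive. The difference was -1.98 (SE 0.41, 95% interval -2.88 to -1.07), with an unadjusted p of 0.00046 and an adjusted p of 0.186 by limma. It was -2.15 without mutant IVD 3 and -1.94 without mutant vertebrae 1. The second probe set, 1448424_at, had -0.34, -0.16, -0.06 and 0.12 in mutant IVD, against 0.24, 0.40 and 0.18 in mutant vertebrae. These groups did not overlap either, but the difference was only -0.38 (SE 0.20). Over the 13 arrays the 2 Frzb probe sets correlated at r = 0.40, and their mean differed by -1.18 (SE 0.24, adjusted p = 0.124).

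In controls the tissue difference of Frzb was smaller. Probe set 1416658_at was at -0.79, 0.80 and -0.38 in control IVD, against 0.21, 1.04 and 0.00 in control vertebrae. The groups overlapped, although IVD was below vertebrae in each mouse, by -1.0, -0.24 and -0.38. The mean difference was -0.54 (SE 0.44). Mutant IVD was at -1.08 ± 0.53 (SD, n = 4) and control IVD at -0.12 ± 0.83 (SD, n = 3), a difference of -0.96 (SE 0.41, adjusted p = 1 by limma, unadjusted p = 0.039). It was -0.50 without control IVD 2, the 1 control IVD array with a positive value. The interaction was -1.44 (SE 0.61, unadjusted p = 0.035, adjusted p = 1), so a change of the tissue difference with genotype was not called. The cartilage list was also lower in IVD than in vertebrae, ranging from -1.78 to 0.08 in mutant IVD and from 0.29 to 1.06 in mutant vertebrae, and its part in the Frzb values was not tested.

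**Figure D3:**
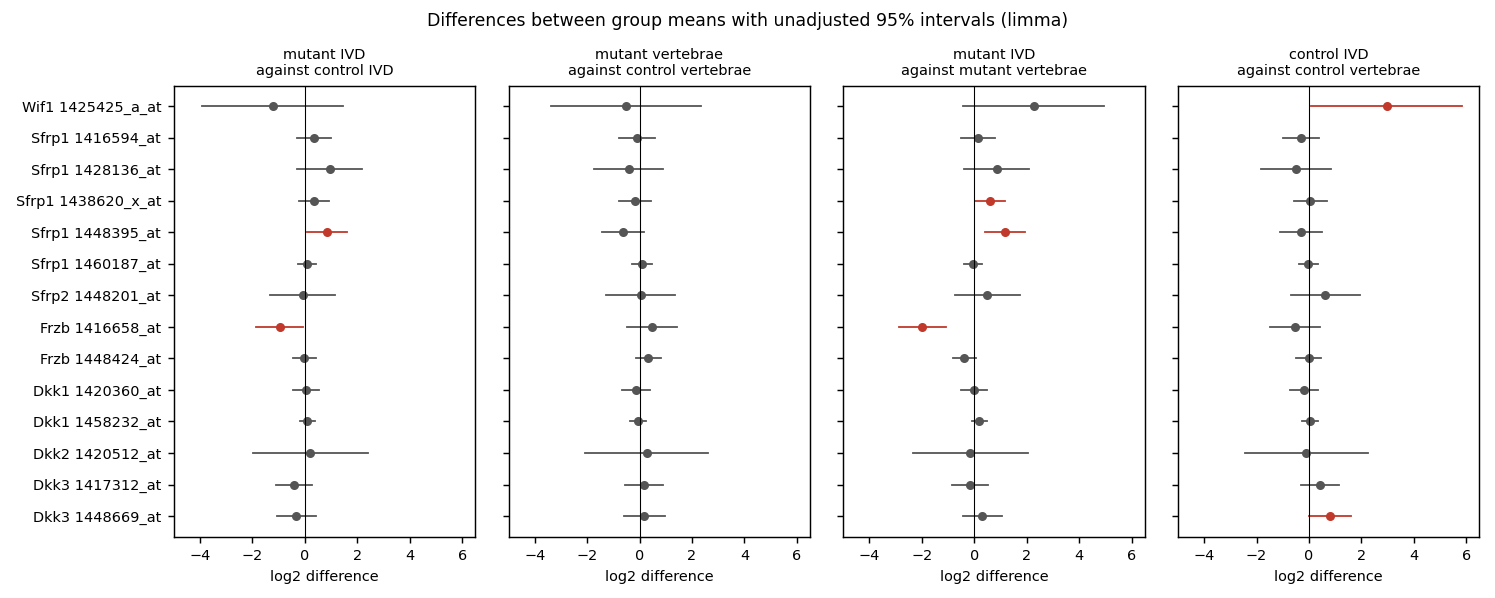
Difference between group means on the log2 scale (horizontal axis) with the unadjusted 95% interval from limma for each of the 14 antagonist probe sets (rows) in 4 comparisons (panels), in red where the interval leaves out 0. None had an adjusted p under 0.05, and Frzb 1416658_at in mutant IVD against mutant vertebrae (-1.98) has the interval farthest from 0.

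Sfrp1, which binds Wnts through a Frizzled-like domain, was read by 5 probe sets that did not move as one. Of these, 3 (1428136_at, 1438620_x_at and 1448395_at) correlated with each other at r = 0.72 to 0.76 over the 13 arrays. The others, 1416594_at and 1460187_at, correlated with each other at 0.57 and with these at -0.20 to 0.30. Probe set 1448395_at was at 0.99, 0.37, 0.71 and 0.96 in mutant IVD, against -0.18, -0.70 and -0.40 in mutant vertebrae. Every mutant IVD array was above every mutant vertebral array. The difference was 1.18 (SE 0.35, unadjusted p = 0.0053, adjusted p = 0.344 by limma), and it was 1.20 without mutant IVD 3.

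In controls the same Sfrp1 probe set was at 0.67, -0.14 and -0.81 in control IVD and at 0.88, -0.28 and 0.00 in control vertebrae, and the tissues overlapped. Mutant IVD exceeded control IVD by 0.85 (SE 0.35, unadjusted p = 0.031, adjusted p = 1), and control IVD 1 lay within the mutant range. Without control IVD 3 that difference was 0.49. The interaction of 1.48 (SE 0.51, unadjusted p = 0.013, adjusted p = 1) was not called. Over the mean of its 5 probe sets, Sfrp1 in mutant IVD differed by 0.55 (SE 0.23, adjusted p = 0.566) from mutant vertebrae and by 0.52 (SE 0.23, adjusted p = 1) from control IVD.

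Sfrp2, a close relative of Sfrp1, showed no shared direction. Its log2 values were 0.74, -0.17, -0.40 and 0.79 in mutant IVD, 1.30, 0.42 and -0.77 in control IVD, 0.00, -0.78 and 0.00 in mutant vertebrae, and -0.43, -1.39 and 0.91 in control vertebrae. All 4 groups overlapped. Within control mice the IVD was higher by 1.73 and 1.82 in mice 1 and 2 and lower in mouse 3, at -1.68. The smallest adjusted p of Sfrp2 in the 4 comparisons was 0.839 by limma.

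**Figure D4:**
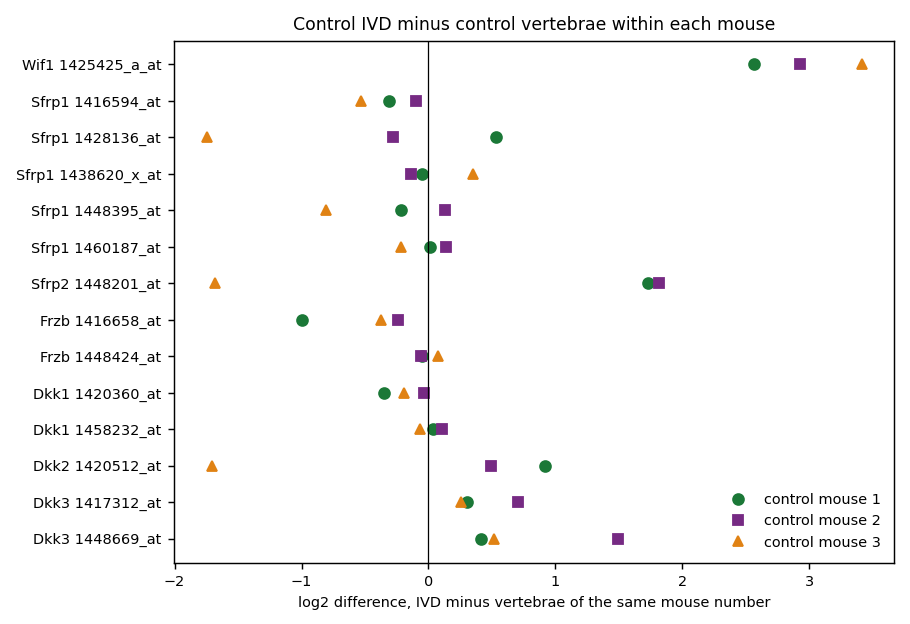
Control IVD minus control vertebrae of the same mouse number on the log2 scale (horizontal axis) for the 14 antagonist probe sets (rows), with 1 marker per mouse. Wif1 (2.56, 2.92 and 3.41) and both Dkk3 probe sets are positive in all 3 mice, and Sfrp2 and Dkk2 change sign in mouse 3.

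Dkk1, the Dickkopf protein that removes Lrp5 and Lrp6 from the cell surface in complex with Kremen, was nearly flat. Its 8 differences (2 probe sets in 4 comparisons) lay between -0.19 and 0.19. By 1458232_at it was at 0.06, 0.09, 0.11 and 0.07 in mutant IVD, against 0.04, -0.08 and 0.00 in control IVD. These groups did not overlap, yet the difference was 0.10, and the 2 Dkk1 probe sets correlated at r = -0.29 over the arrays. Values this small in a probe set with a range of 0.40 have no interpretable direction.

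Dkk2, which also binds Lrp6 and can inhibit or activate the pathway depending on the partners present, was the second most variable antagonist. Its log2 values were 0.45, -2.20, 0.86 and 0.21 in mutant IVD, 1.14, -0.58 and -1.70 in control IVD, -1.33, -1.27 and 2.55 in mutant vertebrae, and 0.21, -1.07 and 0.00 in control vertebrae. Every group overlapped with every other, and the highest and lowest arrays were both mutant. The 4 differences lay between -0.15 and 0.27, with a smallest adjusted p of 0.975 by limma. Of 1965 genes, those with the highest Pearson's r to it over the 13 arrays were Apcdd1, a membrane inhibitor of Wnt signalling (r = 0.86, rho = 0.81), Hacd4 (r = 0.81, rho = 0.82) and Akap12 (r = 0.81, rho = 0.81). Without mutant vertebrae 3 and mutant IVD 2, r was 0.68, 0.63 and 0.84, so the order among them depends on the measure and on those arrays. For Sfrp2 the closest were Lmo1 (r = 0.76), 4930426D05Rik (0.75) and Ctxn1 (0.75).

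Dkk3, the divergent Dickkopf, had higher values on the IVD side of every control mouse. By 1448669_at it was at 0.04, 1.37 and 0.47 in control IVD, against -0.37, -0.13 and -0.05 in control vertebrae. The groups did not overlap, and the differences within the mouse were 0.42, 1.49 and 0.52. The mean difference was 0.81 (SE 0.37, unadjusted p = 0.047, adjusted p = 1 by limma, and adjusted p = 0.331 with the mouse as a random block). It was 0.44 without control IVD 2. The second probe set, 1417312_at, gave 0.30, 0.70 and 0.25 within the mouse, but its groups overlapped. In mutants, 1448669_at was at 0.92, 0.37, -0.08 and 0.00 in IVD and at -0.27, -0.33 and 0.60 in vertebrae, and the groups overlapped.

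Counted over the 14 probe sets, limma without a block called none in any comparison, and between 6 and 8 had a positive difference in each. In mutant IVD against control IVD 2 had an unadjusted p under 0.05 (Frzb 1416658_at and Sfrp1 1448395_at), beside 3.13% of all probe sets, and 1 did not overlap, beside 4.61%. In mutant vertebrae against control vertebrae the count was 0, beside 2.61% of all, and every probe set overlapped, beside 5.56%. Mutant IVD against mutant vertebrae, where limma called 0.0155% of all probe sets, had 3 at an unadjusted p under 0.05 (beside 8.07%). In that comparison 4 did not overlap, 2 above and 2 below (beside 6.63%). Control IVD against control vertebrae had 2 at an unadjusted p under 0.05, Wif1 and Dkk3 1448669_at, beside 2.45% of all. The same direction in all 3 control mice was seen in 6 of the 14, 3 higher and 3 lower in IVD, beside 33.2% of all probe sets. The interaction had 2, beside 1.37%. Median differences over the antagonists were 0.05, -0.01, 0.17 and -0.02 in these 4 pairwise comparisons, beside 0.05, 0.05, -0.02 and -0.02 over all probe sets. The antagonists thus had no common direction. Wif1 and Dkk3 in control IVD and Sfrp1 1448395_at in mutant IVD were on the IVD side, and Frzb in mutants was on the vertebral side.

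Other genes of the pathway were read as the mean of their probe sets, and limma called 0 in every list and comparison. Between control tissues, Notum, a secreted enzyme that inactivates Wnts, was at 0.96, 0.72 and 0.79 in control IVD, against -0.54, 0.00 and -0.88 in control vertebrae. This difference of 1.30 (SE 0.39) had an unadjusted p of 0.0055 and an adjusted p of 1 by limma. Fzd8, a Frizzled receptor, was at 1.33, 1.81 and 0.96 in control IVD, against -0.44, -0.37 and -0.79 in control vertebrae, a difference of 1.90 (SE 0.52, adjusted p = 1). Both were on the IVD side like Wif1, without overlap between the control tissues, which was also true of 7.44% of all probe sets. They were named for the smallest unadjusted p of their lists in this same comparison, which favours such separation. In mutant IVD 3, where Wif1 was at -3.04, Notum was at -0.40 and Fzd8 at -0.77. The ligand Wnt9a, known from developing joints, differed by 0.71 (SE 0.21) between control IVD and control vertebrae. Bambi, a pseudoreceptor and Wnt target, differed by -1.02 (SE 0.40).

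Between mutant and control IVD, the smallest unadjusted p among the further pathway genes was that of Axin2. This negative regulator, itself a Wnt target, was at 0.44, 0.22, 0.22 and 0.43 in mutant IVD, against -0.11, -0.16 and -0.46 in control IVD. Lef1, a TCF/LEF factor, was at 0.09, 0.22, 0.01 and 0.11 in mutant IVD, against -0.54, -0.51 and -0.16 in control IVD. Neither gene overlapped between the genotypes in IVD, as for 4.61% of all probe sets, and mutant IVD 3 lay with its group for both. They were named for the smallest unadjusted p among the target genes in this comparison, which favours such separation. By limma the IVD differences were 0.57 (SE 0.16, unadjusted p = 0.0034) for Axin2 and 0.51 (SE 0.17, unadjusted p = 0.012) for Lef1. Both had an adjusted p of 1. In vertebrae, mutant minus control was 0.13 (SE 0.17) for Axin2 and 0.38 (SE 0.19) for Lef1. Sfrp5, another Frizzled-related antagonist, differed by -1.07 (SE 0.36, unadjusted p = 0.011), and control IVD 1 lay within the mutant range. Sostdc1, a secreted antagonist of Wnt and BMP, differed by 0.69 (SE 0.27). Of the 11 target genes 10 were higher in mutant IVD (median 0.20), as were 19 of 19 Wnt ligands (median 0.12), beside 58.2% of all genes (median 0.04). After quantile normalization the counts were 9 of 11 and 15 of 19 (medians 0.16 and 0.07, beside -0.01 over all genes). Without the arrays with liver RNA they were 10 of 11 and 13 of 19 (medians 0.22 and 0.07, beside 0.02). The ligand count was thus lower without those arrays, and the share of all genes that were higher was not computed for that setting. Leaving out single arrays gave 15 to 19 of 19 ligands. In vertebrae 17 of 19 ligands were higher in mutants (median 0.13), beside 56.1% of all genes (median 0.03). The mean over the ligands overlapped there, at 0.49, -0.05 and 0.28 in mutant vertebrae against -0.19, 0.05 and 0.06 in control vertebrae. Its highest value was in mutant vertebrae 1, the array with the widest spread, and other settings were not tried for this count. Of the 11 target genes 7 were higher in mutant vertebrae (median 0.13), near the share of all genes. In mutant against control IVD, Wnt11 had the largest ligand difference, 0.44 (SE 0.20). Of the 16 receptors 10 were higher and 6 lower, and of the 9 R-spondins and R-spondin receptors 7 were higher.

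**Figure D5:**
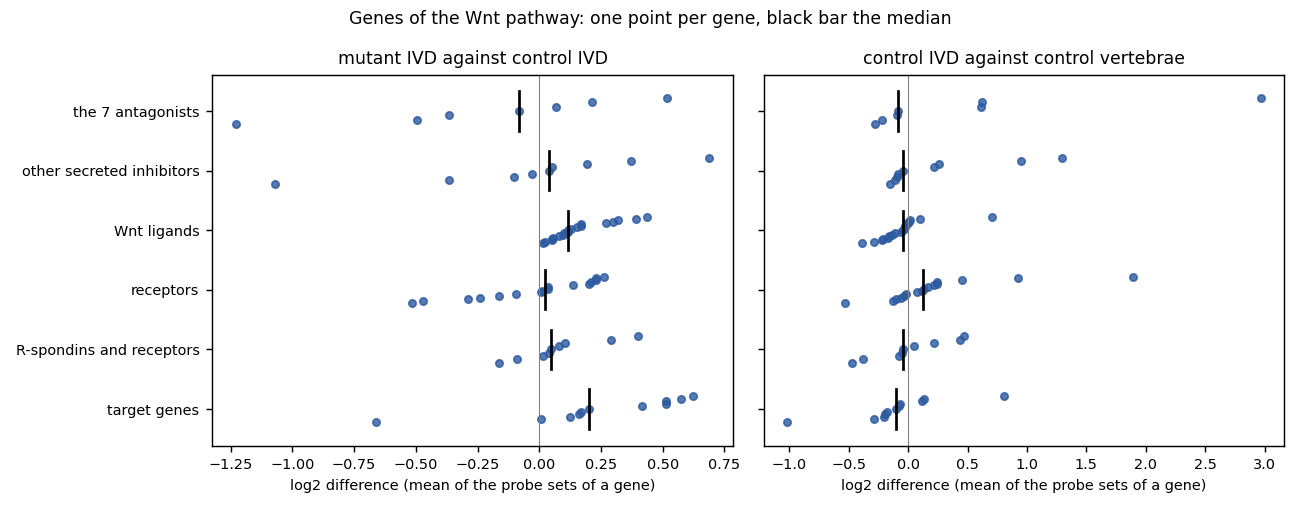
Log2 difference of each gene, as the mean of its probe sets (horizontal axis, 1 point per gene), for the 7 antagonists and 5 further lists of the Wnt pathway (rows), with a black bar at the median. In mutant IVD against control IVD all 19 ligands and 10 of 11 target genes are to the right of 0, and Wif1 (2.97) is the farthest point in control IVD against control vertebrae.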

How the data were processed

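The authors amplified RNA of laser-captured tissue in 2 cycles and computed log2 signals by RMA, which the submitters' processing notes also name. The deposited log2 values have a median of 0 over the 13 arrays for every probe set, so they hold differences between arrays only, and signal over background is unknown. Without the 64 control probe sets, the 4 groups were modelled with limma 3.58.1 in R 4.3.3 (lmFit and eBayes, two-sided, Benjamini-Hochberg adjustment over 45037 probe sets), and tables were made with pandas 2.3.3 in Python 3.11.15. Of these probe sets, 34945 carried 1 gene symbol, 932 several and 9160 none.

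The antagonists and the pathway and marker lists were chosen with earlier results of these data known. Named genes were all antagonist probe sets, up to 2 genes per pathway list with the smallest unadjusted p in control IVD against control vertebrae and in mutant IVD against control IVD, the 3 genes closest to each antagonist whose gene mean spanned at least 2, and Matn1, Fmod, Tgfb3, Col2a1 and Tgfbr2 as checks. Lists were matched by exact symbol: 9 of 10 other inhibitors, 19 of 19 ligands, 16 of 17 receptors, 9 of 9 R-spondins and receptors and 11 of 12 target genes were measured.

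Both control tissues came from the same mice. No source says which arrays share a mouse, and equal numbers were taken as 1 mouse. Deviations from the group means correlated at r = 0.80, 0.57 and 0.57 between control arrays of the same number. Between mutant arrays of the same number r was -0.40, 0.24 and -0.15. Mutant arrays were not treated as paired except in the block over all arrays, and whether they share embryos was not tested. Both control arrays numbered 1 carried liver RNA, and no correlation was computed between arrays of unlike number. These values therefore do not settle how the other control arrays are matched. The block used a consensus correlation of 0.538.

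The alternatives were quantile normalization, replicate blocks, array weights, an unequal variance test, the 2 groups alone, robust estimation with a variance trend, liver and neuronal means as covariates, gene means, probe sets with 1 symbol, and leaving out each array. Leaving out the arrays with liver or neuronal RNA, the block without each mouse, and the settings for pathway genes were added after seeing the data. The limma fit without a block was also run on simulated independent normal noise with known shifts added in control IVD. That simulation held no shared mouse and no array with RNA of other tissues, so it does not check the block or such arrays. Promoter windows came from RefSeq (GRCm38.p6) and matched 5 of the 7 antagonists by symbol.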

Additional observations from a re-analysis of the deposited data

How the results depend on the processing

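No antagonist probe set was called by limma under any alternative in 4 of the 5 comparisons. In control IVD against control vertebrae the count was 0, and it was 1 with the mouse as a random block in the control arrays and 1 with the mouse as a fixed replicate block, in both cases Wif1. It was 0 with the array number as a block over all arrays, and 0 to 0 when a mouse was left out of the random block. Leaving out each array gave 0 to 0 in all 5 comparisons. The difference of Wif1 between control tissues ranged from 1.97 to 3.59 over its alternatives, with adjusted p-values of 0.0368 to 1.

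The direction of Wif1 turned in 3 comparisons. Mutant minus control IVD was 0.45 without the arrays with liver transcripts and 0.0099 without those with neuronal transcripts, and it ran from -1.87 to 0.0099 when single arrays were left out. Mutant minus control vertebrae was 0.60 with array weights and ran from -1.31 to 0.68 without single arrays. The interaction was 1.49 with liver and neuronal means as covariates, 0.78 without the arrays with liver transcripts and 1.04 without those with neuronal transcripts, and it ran from -1.91 to 0.53 without single arrays, with 0.086 without mutant vertebrae 3. The cause was not tested.

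Of the 70 antagonist differences (14 probe sets in 5 comparisons), 36 kept their direction in every alternative, as did 19 of the 23 with a size of at least 0.5. Frzb 1416658_at in mutant IVD against mutant vertebrae ranged from -2.23 to -1.75 over its alternatives, with adjusted p-values of 0.0768 to 0.962, and the mean of both Frzb probe sets was at -1.18. Sfrp1 1448395_at ranged from 0.97 to 1.31 there, and the mean of the 5 Sfrp1 probe sets was at 0.55. The differences of the named pathway genes did not turn under the 9 or 10 settings tried. The dim probe sets could not be filtered out as planned, because centred values hold no level.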
